A study of Mus musculus with 54 samples.

Results

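Mouse microglia that had been given fluorescently labelled alpha-synuclein (aSyn) and kept on their own were compared with untreated microglia, across all genes measured. The comparison used 10 of the 54 libraries of the series: the 4 titled as aSyn donor cells without co-culture and the 6 titled as untreated controls. All were primary microglia of C57BL/6 mice, shaken off mixed glial cultures of neonatal brains (cells of 2 brains per flask) grown with fetal calf serum and L929-cell supernatant. The aSyn-treated cells had received 1 µM of Atto-488-labelled aSyn for 14 h. The untreated cells had received none, and neither group had been mixed with other cells.

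Each library carries a replicate number from 1 to 4, called the experiment here, and a passage label of 3 in experiment 1, 1 in experiment 2 and 2 in experiments 3 and 4. Experiments 2 and 4 had 2 untreated libraries each, whose counts were summed, so that 4 aSyn-treated units faced 4 untreated units, 1 of each per experiment. The labels do not say whether either group was sorted before lysis, whether the experiments used separate animals, or what state of assembly the aSyn had. No group used here received the Atto-488 dye or another protein without aSyn, so the protein, its label and any other content of the preparation cannot be told apart.

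aSyn is a presynaptic protein of neurons that accumulates in the inclusions of Parkinson disease. Microglia are the resident macrophages of the brain: they take up extracellular aSyn, sense it through pattern recognition receptors such as the Toll-like receptors, and break it down in lysosomes. Macrophages under load commonly draw on a few stress programmes. In the integrated stress response, the transcription factor ATF4 induces genes for amino acid uptake and synthesis. The factor NRF2 induces antioxidant genes, and the autophagy receptor p62, encoded by Sqstm1, brings cargo to autophagosomes and also releases NRF2 from its inhibitor.

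Library totals ran from 9407503 to 14358778 counts (median 12941008), and 13450 to 14653 genes had at least 1 count. In every unit the microglial genes Csf1r, Itgam and Cx3cr1 were measured, Csf1r at 1852, 1518, 1414 and 771 CPM (counts scaled to library totals adjusted by edgeR's TMM factors) with aSyn and 1421, 1469, 1299 and 899 CPM without. The homeostatic genes Tmem119 and P2ry12 were low in all units, at 0.996 to 8.27 and 1.97 to 12.3 CPM. The precursor of ribosomal RNA, Rn45s, took between 4.77 and 9.24% of the reads counted in experiments 1 to 3 but 17.7 to 22.3% in experiment 4, whose libraries also carry facility numbers from a separate range.

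Exposure to aSyn was followed by a rise of 90 genes and a fall of 49 among 11545 tested. Among genes of at least 5 CPM in the higher group, the largest rises were those of Lcn2, Cxcl3, the adhesion receptor gene Adgre5, the cystine transporter gene Slc7a11 and the transglutaminase gene Tgm2. The largest falls were those of Fbxo2, Nanos1, Zfp618, Nr2f1 and Tln2. The edgeR quasi-likelihood test with the experiment as a block and a Benjamini-Hochberg adjusted p under 0.05 thus called 1.2% of genes, 0.78% higher and 0.424% lower. Of the 90 genes that rose, 72 did so more than 2-fold and 25 more than 4-fold, and of the 49 that fell, 35 and 10. Every one of the 139 had the same sign in all 4 experiments. The call was made on these same 4 pairs, so the shared sign is no separate support for it. Over all genes, 16.6% had aSyn higher in all 4 experiments and another 16.6% had aSyn lower.

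**Figure D1:**
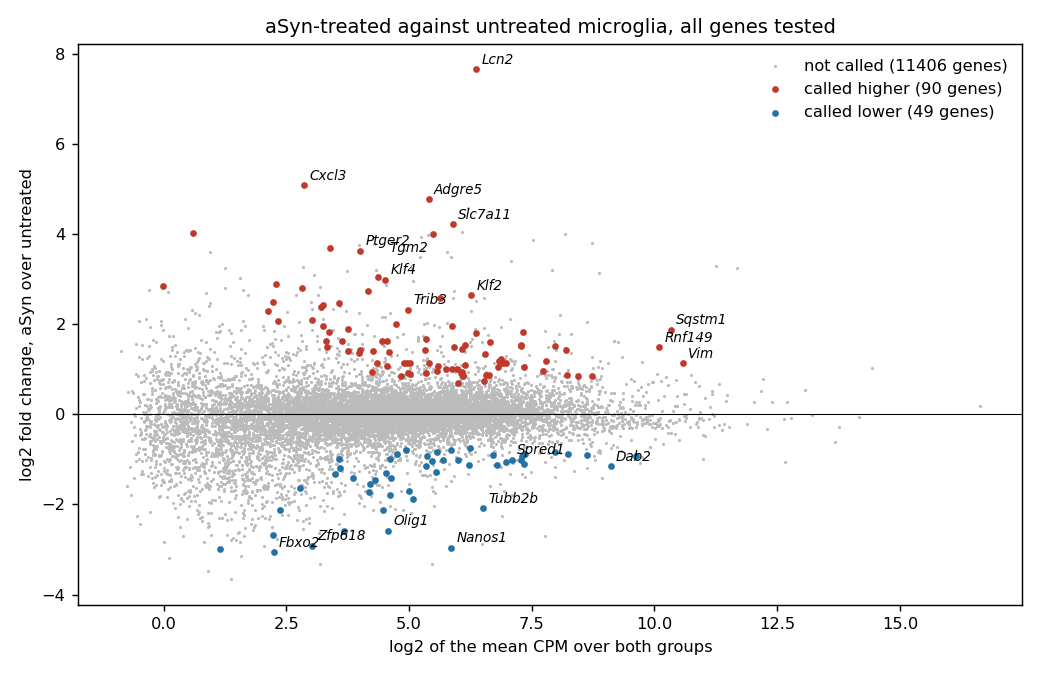
Log2 fold change of aSyn-treated over untreated cells (vertical axis) against the log2 of the mean CPM over both groups (horizontal axis) for 11545 genes, 1 point a gene. The 90 genes called higher are red and the 49 called lower blue; the called genes lie between mean levels of about 1 CPM and those of Sqstm1 and Vim, and Lcn2 lies highest at 7.65.

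The number of calls differed between fits. An unadjusted edgeR p under 0.05 was found for 2532 genes (21.9%; 1259 with aSyn higher, 10.9%, and 1273 lower, 11%). The 8 units leave 3 residual degrees of freedom, and leaving out experiment 1, 2 or 3 left 3, 6 and 1 genes called higher and none lower, at 2149, 2282 and 1547 genes with an unadjusted p under 0.05; leaving out experiment 4 gave 204 higher and 137 lower. A fit over all 14 groups of the series with the same block called 2524 of 13169 genes (19.2%; 1178 higher, 8.95%, and 1346 lower, 10.2%), among them all 139. DESeq2 on the 8 units with the same block called 1226 (10.6%; 561 higher, 4.86%, and 665 lower, 5.76%), the 139 among them. The genes named below as having risen or fallen, as not called or as filtered out are so in the 8-unit fit. The larger fit called some of those that this fit did not. Counts from the larger fit or from DESeq2 are given as such.

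Among surface receptors, Adgre5 rose; it encodes CD97, an adhesion receptor of leukocytes that binds CD55. Adgre5 was measured at 87.8, 84.3, 82.1 and 71.1 CPM in aSyn-treated cells of experiments 1 to 4 and 3.29, 2.64, 3.78 and 2.39 CPM in untreated cells. The groups did not overlap, as for 576 genes with aSyn higher (4.99% of those tested) and 411 with aSyn lower (3.56%). The level with aSyn was 27.3-fold that without (log2 fold change 4.77, SE 0.16, edgeR adjusted p 2.93e-04), the smallest adjusted p of all genes. Its exons share bases with the microRNA gene Mir1668 on the same strand and with Ddx39 on the opposite strand (Adgre5 spans chr8:83723251-83741326 in GRCm38). Ptger2, the gene of a prostaglandin E2 receptor that signals through cyclic AMP, was measured at 11.1, 34.4, 21.2 and 52.8 CPM in aSyn-treated cells of experiments 1 to 4 and 1.29, 3.25, 1.37 and 3.33 CPM in untreated cells. Each experiment showed the rise, lowest in experiment 1 and highest in experiment 4 in absolute level (log2 fold change 3.63, SE 0.21, edgeR adjusted p 0.00631). Exons of Ptger2 overlap those of 2 genes on the opposite strand.

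Further receptors of soluble signals rose. Ccr1, a receptor of CC chemokines, stood at 12.5 ± 6.33 against 1.66 ± 0.210 CPM (SD, n = 4 each), with log2 fold change 2.80, SE 0.29, edgeR adjusted p 0.0188. Cxcr4, the receptor of CXCL12, rose by less (162, 198, 148 and 125 CPM with aSyn and 66.6, 92.8, 47.9 and 72.9 CPM without it, experiments 1 to 4; log2 fold change 1.19, SE 0.16, edgeR adjusted p 0.033). Il17ra, a subunit of the interleukin 17 receptor, had 35.5 ± 8.39 against 11.6 ± 3.09 CPM (SD, n = 4 each), with log2 fold change 1.62, SE 0.13, edgeR adjusted p 0.0135. Of 17 tested chemokine and chemoattractant receptors, Ccr1 and Cxcr4 were the 2 called, both higher, against 0.78% of all genes called higher. The list's median log2 fold change was 0.26, against -0.01 over all genes. The fit over all 14 groups called 5 of 19 members higher and 2 lower, against 8.95% and 10.2% of all genes. DESeq2 called 5 and 0, against 4.86% and 5.76%. In the 8-unit fit the formyl peptide receptor gene Fpr1 (2.96, SE 0.93, adjusted p 0.143) and Cx3cr1 (-1.39, SE 0.59, adjusted p 0.233) were not called. Picked after their values were seen, Csf2rb and Csf2rb2, which encode the closely similar beta subunits of the GM-CSF and interleukin 3 receptors, rose by 1.53 and 0.95 (SE 0.15 and 0.13), and reads of the pair may be shared between them. The receptor gene Gpr35 (2.42), the lectin receptor gene Clec5a (1.06) and the kinase gene Syk (1.55), which acts below such receptors, were picked in the same way and also rose.

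**Figure D2:**
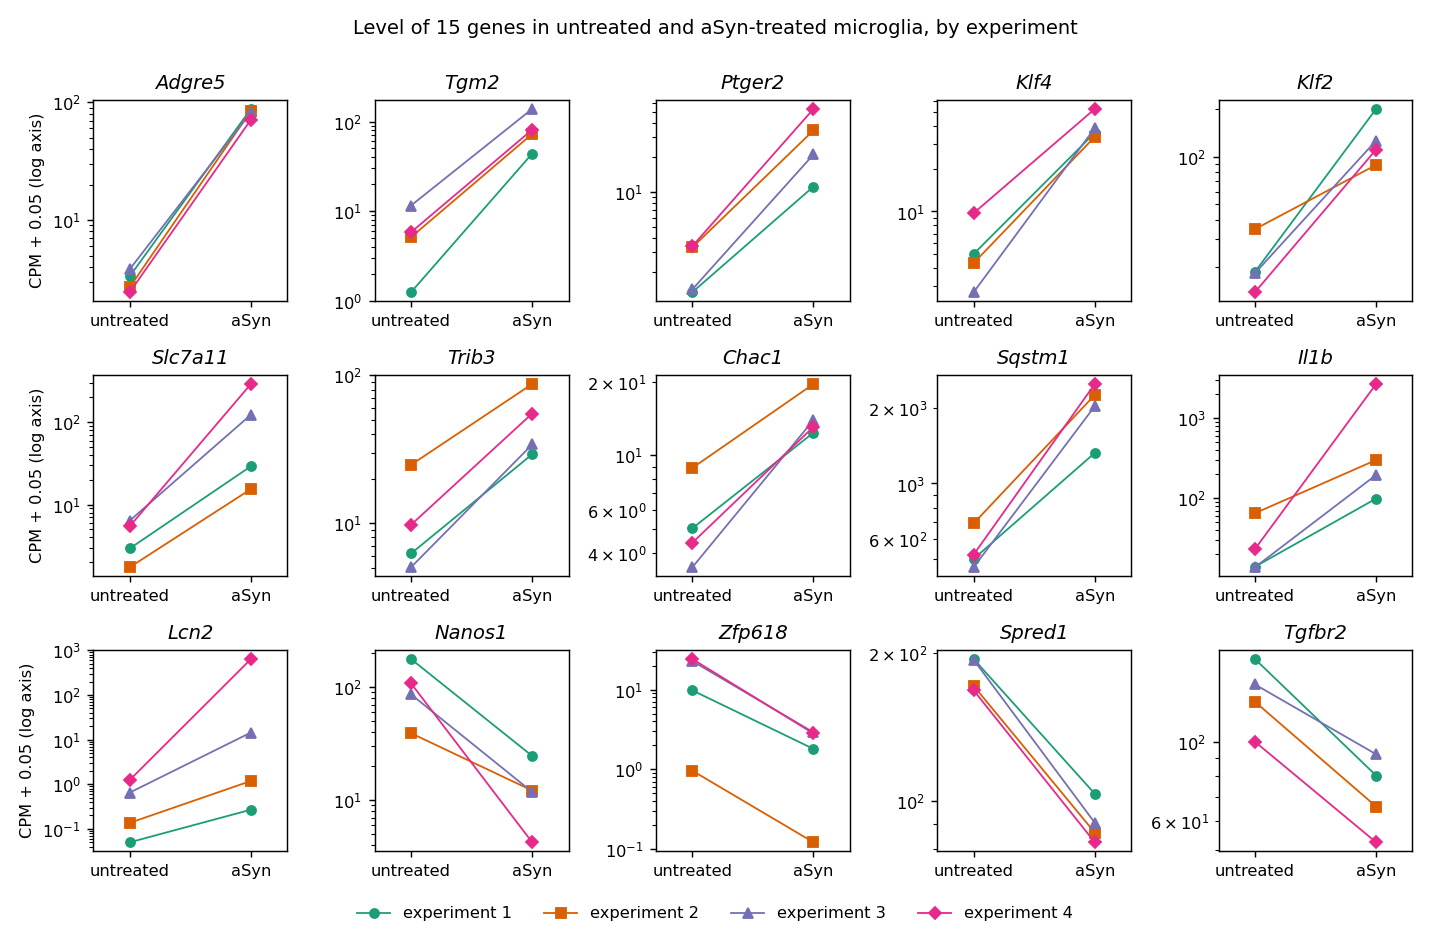
CPM plus 0.05 on a log axis for 15 genes in untreated and aSyn-treated microglia, with 1 line for each of the 4 experiments; each panel has its own axis. Lines for Adgre5, Sqstm1 and Spred1 run nearly parallel, while those for Lcn2 and Il1b fan out, with experiment 4 highest.

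Large rises were also those of the enzyme gene Tgm2 and the carrier gene Slc13a3. Tgm2, the gene of transglutaminase 2, which cross-links proteins, was measured at 43.8, 72.6, 138 and 80.97 CPM in aSyn-treated cells of experiments 1 to 4 and 1.20, 5.07, 11.5 and 5.76 CPM in untreated cells. Its untreated level was lowest in experiment 1 and highest in experiment 3, and the rise was present in each (log2 fold change 3.99, SE 0.26, edgeR adjusted p 0.00834); its exons overlap those of 2 genes on the opposite strand. Slc13a3, which encodes a sodium-dependent dicarboxylate carrier, had 36.6 ± 12.4 against 4.54 ± 2.01 CPM (SD, n = 4 each), with log2 fold change 3.05, SE 0.32, edgeR adjusted p 0.0188.

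The gelatinase gene Mmp9 rose in each experiment, but from very different starting levels (67.7, 20.1, 196 and 37.3 CPM with aSyn and 5.08, 2.82, 62.5 and 7.63 CPM without it, experiments 1 to 4), so that the groups overlapped (log2 fold change 2.57, SE 0.33, edgeR adjusted p 0.0318). It was the 1 called member of 21 tested integrins and matrix proteases, whose median was 0.45. With all 14 groups in the fit, 9 of 22 members were called higher and 2 lower, against 8.95% and 10.2% of all genes. Itga9 was not called (log2 fold change 0.53, SE 0.18, edgeR adjusted p 0.161). Tnfaip2, a gene induced by tumour necrosis factor whose product shapes membrane protrusions, rose evenly (433, 383, 317 and 590.1 CPM with aSyn and 149, 146, 133 and 201 CPM without it, experiments 1 to 4; log2 fold change 1.44, SE 0.12, edgeR adjusted p 0.0135). Together with Mmp9 it made 2 called higher of 15 tested genes of cell fusion and osteoclast-like cells (median 0.09), against 0.78% of all genes. With all 14 groups in the fit 5 of 17 were called higher and 1 lower, against 8.95% and 10.2% of all genes. DESeq2 called 3 and 1, against 4.86% and 5.76%. Ocstamp, which takes part in osteoclast fusion, did not pass the filter on low counts in the 8-unit fit. It had 101, 88, 8 and 32 counts with aSyn and 3, 0, 0 and 3 without. The fit over all 14 groups called it higher (log2 fold change 5.35, SE 0.86, edgeR adjusted p 2.64e-05).

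Several transcription factor genes of the early response were high after the 14 h of exposure. Klf4 and Klf2 encode Krüppel-like factors that restrain or shape macrophage activation. Klf4 was measured at 35.7, 33.5, 38.6 and 52.6 CPM in aSyn-treated cells of experiments 1 to 4 and 4.98, 4.29, 2.66 and 9.69 CPM in untreated cells (log2 fold change 2.99, SE 0.25, edgeR adjusted p 0.0135). Klf2 was measured at 201, 88.7, 127 and 111 CPM in aSyn-treated cells of experiments 1 to 4 and 18.6, 34.7, 18.3 and 13.8 CPM in untreated cells (log2 fold change 2.65, SE 0.35, edgeR adjusted p 0.0318). In both genes every aSyn-treated unit lay above every untreated one. Nr4a2, an orphan nuclear receptor gene, rose from a low level, with 8.02 ± 5.07 against 1.33 ± 0.631 CPM (SD, n = 4 each), and with log2 fold change 2.49, SE 0.27, edgeR adjusted p 0.0199.

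These were the 3 called among 25 tested immediate early genes, whose median was 0.55. By experiment the medians were 0.76, 0.15, 0.43 and 0.43. Fosb had a log2 fold change of 2.66 (SE 0.47, adjusted p 0.0585) and was not called, while Myc (-1.42), Jun (-0.54) and Dusp6 (-0.61) had negative values that were not called either (adjusted p 0.131, 0.145 and 0.13). The 14-group fit called more, 8 of 28 members higher and 3 lower, against 8.95% and 10.2% of all genes. DESeq2 called 8 and 2, against 4.86% and 5.76% of all genes. The histone demethylase gene Kdm6b (2.07), the repressor gene Nfil3 (1.63), the AP-1 partner gene Jdp2 (1.41) and Tfec (1.42), of the family of TFEB, rose too and were picked after their values were seen.

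Trib3, Chac1 and Asns, genes of the integrated stress response, rose. Trib3, a pseudokinase gene induced by ATF4, was measured at 29.2, 87.2, 34.0 and 55.1 CPM in aSyn-treated cells of experiments 1 to 4 and 6.18, 24.7, 4.98 and 9.69 CPM in untreated cells (log2 fold change 2.32, SE 0.19, edgeR adjusted p 0.0135). Chac1, which encodes an enzyme that degrades glutathione, was measured at 12.4, 19.6, 13.9 and 13.05 CPM in aSyn-treated cells of experiments 1 to 4 and 4.98, 8.84, 3.43 and 4.34 CPM in untreated cells (log2 fold change 1.503, SE 0.21, edgeR adjusted p 0.033). Asns, the gene of asparagine synthetase, was measured at 93.6, 125, 80.4 and 79.9 CPM in aSyn-treated cells of experiments 1 to 4 and 46.6, 68.7, 32.9 and 34.0 CPM in untreated cells (log2 fold change 1.10, SE 0.12, edgeR adjusted p 0.0206). In all 3 genes the groups did not overlap, and experiment 2 had the highest level in untreated cells. Slc7a11, which encodes the cystine importer xCT and is a target of both ATF4 and NRF2, was measured at 29.2, 15.4, 123 and 291 CPM in aSyn-treated cells of experiments 1 to 4 and 2.89, 1.69, 6.35 and 5.42 CPM in untreated cells. Its level with aSyn spanned from 15.4 CPM in experiment 2 to 291 CPM in experiment 4, all above the highest untreated value (log2 fold change 4.22, SE 0.47, edgeR adjusted p 0.0199).

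Trib3, Chac1 and Asns were the called members of 22 tested genes of the unfolded protein response and the integrated stress response. The list's median was 0.49, with 0.23, 0.62, 0.33 and 1.12 in experiments 1 to 4. In the fit over all 14 groups 12 of 23 members were called higher (8.95% of all genes), and by DESeq2 9 of 22 (4.86%). Atf4 itself had a log2 fold change of 1.04 (SE 0.22, adjusted p 0.0736), Ddit3, the gene of CHOP, 1.84 (SE 0.34, adjusted p 0.0607), and Sesn2 2.47 (SE 0.42, adjusted p 0.0534); all 3 were positive in 4 of 4 experiments and not called. Picked after their values were seen, 2 aminoacyl-tRNA synthetase genes, Aars and Cars, rose by 1.06 and 1.01 (SE 0.16 and 0.15). So did the amino acid carrier genes Slc7a1 (1.14) and Slc6a9 (1.84) and the translation repressor gene Eif4ebp1 (0.87). Cars and Aars share exon bases with other genes.

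Because ATF4 acts through a short DNA element, promoter windows from 250 bases before to 50 bases after the start of RefSeq genes (build GRCm38.p6) were searched for the C/EBP-ATF response element, spelled TGATGNAA, on both strands. The stretches shown here are those of 4 stress genes that rose, and of Cxcl3 for a match to an NF-kB pattern (GGG, 2 bases of any kind, then TTTCC), with matches in capitals and positions counted from the annotated start as 0. Asns (chr6:7693214-7693243, minus strand) has a match at -23, Chac1 (chr2:119350992-119351221, plus strand) at -193, Trib3 (chr2:152344028-152344057, minus strand) at 14, Slc7a11 (chr3:50443634-50443863, minus strand) at -66 and -47, and Cxcl3 (chr5:90785851-90786080, plus strand) at -73.
Asns: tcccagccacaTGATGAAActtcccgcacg
Trib3: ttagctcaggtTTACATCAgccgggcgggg
Chac1: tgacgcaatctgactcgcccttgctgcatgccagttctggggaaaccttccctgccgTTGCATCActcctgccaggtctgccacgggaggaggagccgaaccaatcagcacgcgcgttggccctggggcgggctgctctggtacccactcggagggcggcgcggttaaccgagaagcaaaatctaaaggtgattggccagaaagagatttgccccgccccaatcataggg
Slc7a11: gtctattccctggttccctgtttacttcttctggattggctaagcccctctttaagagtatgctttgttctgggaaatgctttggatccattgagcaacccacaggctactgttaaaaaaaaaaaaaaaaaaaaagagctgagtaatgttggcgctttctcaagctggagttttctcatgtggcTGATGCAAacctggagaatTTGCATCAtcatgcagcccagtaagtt
Cxcl3: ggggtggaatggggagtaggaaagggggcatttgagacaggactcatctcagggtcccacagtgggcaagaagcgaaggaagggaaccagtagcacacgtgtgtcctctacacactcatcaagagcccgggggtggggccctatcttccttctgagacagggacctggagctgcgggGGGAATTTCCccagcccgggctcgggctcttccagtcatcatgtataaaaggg

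Windows were found for 72 of the 90 genes that rose, 40 of the 49 that fell and 9218 of the genes tested. The ATF pattern TGATGNAA occurred in 10 of the 72 (13.9%), in 1 of the 40 (2.5%) and in 2.79% of the tested genes. The 10 were Aars, Arid5b, Asns, Bcl2a1b, Bcl2a1d, Chac1, Jdp2, Samd8, Slc7a11 and Trib3, of which Bcl2a1b and Bcl2a1d are close copies whose reads may be shared. The windows of Slc7a1 and Slc6a9 held no match to the ATF pattern, and Cars, Eif4ebp1 and Sqstm1 were not among the 10 either. Only stretches with a match are shown above. The NF-kB pattern occurred in 6 of the 72 (8.33%), namely Akap13, Cxcl3, Dmxl2, Lmna, Tfec and Vim, in 1 of the 40 (2.5%) and in 2.05% of tested genes. The antioxidant pattern TGACNNNGC, bound by NRF2 and read on both strands, occurred in 17 of the 72 (23.6%), 11 of the 40 (27.5%) and 17.2% of tested genes. The cyclic AMP pattern TGACGTCA, which begins with the same 4 letters, occurred in 0 of the 72, 2 of the 40 (5%) and 3.76% of tested genes. Over all 32851 windows the shares were 3.97, 1.63, 12.4 and 1.79% in the order given. These are counts of letters in a window and were not tested.

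Sqstm1, the gene of p62, was among the most abundant genes that rose. It was measured at 1324, 2254, 2033 and 2491 CPM in aSyn-treated cells of experiments 1 to 4 and 501, 694, 464 and 521 CPM in untreated cells. The lowest aSyn-treated unit, that of experiment 1, lay far above the highest untreated one (log2 fold change 1.87, SE 0.19, edgeR adjusted p 0.0186); Sqstm1 shares exon bases with Mrnip on the opposite strand. Among 30 tested NRF2 and antioxidant genes Sqstm1 and Slc7a11 were called, both higher, and the median was 0.51. Experiment 1 had a median of -0.03, and experiments 2 to 4 had 0.65, 0.83 and 0.63.

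Of the 30 tested NRF2 and antioxidant genes 24 had positive values and 6 negative ones, against 49.5% of all genes positive. In 10 of them (33.3%) aSyn was higher in each experiment, against 16.6% of all genes. Several genes for enzymes that NRF2 induces were positive without being called in the 8-unit fit. Srxn1, sulfiredoxin, had 1.47 (SE 0.26, adjusted p 0.0581), Txnrd1, thioredoxin reductase, 1.00 (SE 0.18, adjusted p 0.0607), and Gclm, of glutathione synthesis, 1.52 (SE 0.33, adjusted p 0.0774). Nqo1 had 1.68 (SE 0.42, adjusted p 0.101) and Hmox1 0.76 (SE 0.27, adjusted p 0.172), the latter with 178, 161, 431 and 1505 CPM with aSyn and 208, 60.6, 211 and 862 CPM without it, experiments 1 to 4. Hmox1 thus was lower with aSyn in experiment 1 and higher in the other 3. The 14-group fit called 17 of the 30 higher and 0 lower, against 8.95% and 10.2% of all genes. DESeq2 called 10 and 0, against 4.86% and 5.76%. Osgin1, an oxidative stress gene picked after its values were seen, rose by 2.01 (SE 0.18, adjusted p 0.0135).

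The autophagy, lysosome and proteasome lists held 1 called gene, Sqstm1. Of 30 tested autophagy genes Sqstm1 alone was, with a median of 0.17, and of 40 lysosomal hydrolases and membrane proteins 0 were, with a median of 0.04; 8 of those 40 had an unadjusted edgeR p under 0.05, 4 in each direction, against 21.9% of all genes. The 36 proteasome subunits were not called either (12 with an unadjusted edgeR p under 0.05, against 21.9% of all genes), but all 36 had positive values, against 49.5% of all genes, with a median of 0.40. Their medians by experiment were 0.11, 0.17, 0.34 and 1.02, highest in experiment 4. In the fit over all 14 groups 17 proteasome genes, 10 lysosomal genes and 9 autophagy genes were called higher (8.95% of all genes). In the same order 0, 3 and 2 were called lower (10.2% of all genes). DESeq2 called 3, 2 and 5 higher (4.86% of all genes) and 0, 2 and 0 lower (5.76%).

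The inflammatory genes Lcn2 and Cxcl3 had the 2 largest fold changes of the genes that rose. Lcn2, which encodes the iron-scavenging acute-phase protein lipocalin 2, was measured at 0.219, 1.13, 14.4 and 640.4 CPM in aSyn-treated cells of experiments 1 to 4 and 0, 0.0867, 0.601 and 1.20 CPM in untreated cells. It was higher in each experiment, though at 3 counts against 0 in experiment 1, and by far highest in experiment 4; the groups overlapped (log2 fold change 7.65, SE 1.05, edgeR adjusted p 0.033). Cxcl3, a neutrophil chemoattractant gene, was measured at 6.50, 9.86, 8.83 and 31.6 CPM in aSyn-treated cells of experiments 1 to 4 and 0.697, 0.650, 0 and 0.224 CPM in untreated cells, with no overlap between groups (log2 fold change 5.08, SE 0.77, edgeR adjusted p 0.041). Il1b, the interleukin 1 beta gene, was measured at 98.9, 300.3, 195 and 2681 CPM in aSyn-treated cells of experiments 1 to 4 and 13.8, 64.9, 13.6 and 23.1 CPM in untreated cells. Here too every aSyn-treated unit lay above every untreated one, yet Il1b was not called in the 8-unit fit (log2 fold change 3.79, SE 0.80, edgeR adjusted p 0.0736). The fit over all 14 groups called it higher (log2 fold change 3.29, edgeR adjusted p 1.66e-04).

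Saa3, an acute-phase serum amyloid gene, spanned from 192 to 21683 CPM with aSyn and from 52.7 to 308 CPM without, higher in each experiment but not called (log2 fold change 3.25, SE 1.26, edgeR adjusted p 0.202). Tnf and Cxcl10 had values of both signs across experiments (log2 fold change 0.01, SE 0.41, and 0.74, SE 0.62; adjusted p 0.991 and 0.524). The sign of Tnf changed under several other settings, and that of Cxcl10 without the replicate block. Nos2, inducible nitric oxide synthase, did not pass the filter and had 9, 38, 45 and 659 counts with aSyn and 0, 7, 6 and 2 without. Csta2, a stefin gene from a cluster of close copies, so that its identity is uncertain, was called higher (log2 fold change 3.68, SE 0.52, edgeR adjusted p 0.0343).

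The inflammatory lists held 2 called genes in the 8-unit fit, which called 1.2% of all genes. Lcn2 was the 1 called of 8 tested acute-phase and nitric oxide genes (median 3.77), and Cxcl3 the 1 called of 19 chemokines (median 1.20). None of 19 NF-kB subunits and inhibitors, 13 cytokines or 19 Toll-like receptors and adaptors was called by edgeR, at medians of 0.46, 0.30 and 0.35; 10, 5 and 7 of them had an unadjusted p under 0.05, against 21.9% of all genes. In the fit over all 14 groups, 9 acute-phase genes, 11 chemokines, 8 NF-kB genes, 8 cytokines and 6 Toll-like receptor genes were called higher. Of these lists only Ccl4 was called lower. Over all genes that fit called 8.95% higher and 10.2% lower. DESeq2 called 5, 8, 7, 4 and 4 of the same lists higher (4.86% of all genes) and 1 chemokine lower (5.76%). Tlr2 had 0.82 (SE 0.18, adjusted p 0.0767) and Tlr4 -0.02 (SE 0.13, adjusted p 0.945).

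These lists differed widely between experiments. The acute-phase medians were 1.49, 2.12, 3.19 and 6.86 in experiments 1 to 4, and the chemokine medians 2.03, 0.37, 0.45 and 3.00. The 30 interferon-stimulated genes had medians of 0.82, -1.20, 0.52 and 2.40, negative in experiment 2 alone. There the untreated cells were high: Rsad2, an antiviral gene, was at 721, 970.5, 563 and 1230.2 CPM with aSyn and 224, 2691, 333 and 99.8 CPM without it, experiments 1 to 4. None of the 30 was called by edgeR in either fit or by DESeq2, and 1 had an unadjusted p under 0.05 in the 8-unit fit (21.9% of all genes). Experiment 4, with the highest medians in the acute-phase, chemokine and interferon lists, was also the one with the highest share of Rn45s; the part of that share in these values was not tested.

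**Figure D3:**
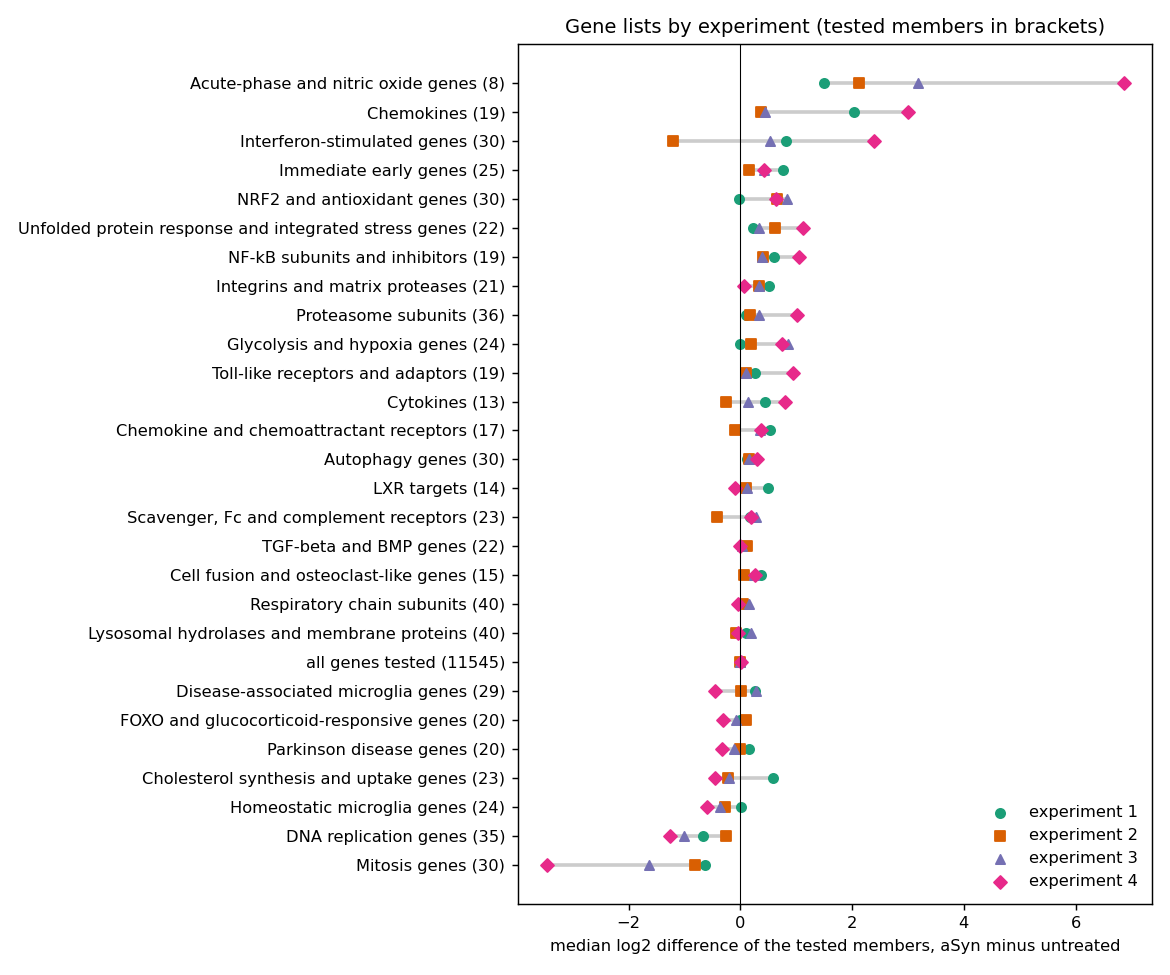
Median log2 difference (aSyn minus untreated, horizontal axis) of the tested members of 27 gene lists and of all genes, 1 symbol for each experiment, with a grey line from the lowest to the highest. Acute-phase genes run from 1.49 to 6.86 and mitosis genes from -3.46 to -0.62, while the medians of all genes lie within 0.02 of 0.

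Genes that answer to glucocorticoids and FOXO factors moved in opposite directions. Tsc22d3, the gene of the glucocorticoid-induced leucine zipper, rose (89.7, 144, 65.0 and 73.7 CPM with aSyn and 17.8, 41.3, 13.9 and 25.3 CPM without it, experiments 1 to 4; log2 fold change 1.97, SE 0.17, edgeR adjusted p 0.0135). Sgk1, a kinase gene, rose from 52.7, 99.5, 89.8 and 78.6 to 156, 209, 323 and 239.7 CPM (log2 fold change 1.52, SE 0.16, edgeR adjusted p 0.0188). Fbxo32, which encodes a ubiquitin ligase subunit, rose by 1.62 (SE 0.16, adjusted p 0.0186).

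Txnip, a thioredoxin inhibitor gene, fell in each experiment (158, 155, 85.5 and 66.9 CPM with aSyn and 236.5, 305, 147 and 155 CPM without it, experiments 1 to 4; log2 fold change -0.89, SE 0.14, edgeR adjusted p 0.0458), although the groups overlapped. Zbtb16, a glucocorticoid-responsive zinc finger gene, had 0.658, 0.213, 0.477 and 0.0894 CPM with aSyn and 6.18, 3.99, 1.97 and 7.29 CPM without it, experiments 1 to 4, without overlap, but was not called (log2 fold change -3.66, SE 0.63, edgeR adjusted p 0.0557). Of the 20 tested genes of this list 3 were thus called higher and 1 lower, against 0.78% and 0.424% of all genes, with a median of -0.07. In the fit over all 14 groups 3 of 21 were called higher and 4 lower, against 8.95% and 10.2% of all genes. DESeq2 called 3 and 4, against 4.86% and 5.76%.

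TGF-beta genes were also split. Tgfbr2, the type 2 TGF-beta receptor gene, fell (80.4, 65.9, 92.1 and 52.4 CPM with aSyn and 169.6, 129, 144 and 99.8 CPM without it, experiments 1 to 4; log2 fold change -0.91, SE 0.12, edgeR adjusted p 0.033). Nrros, whose product presents latent TGF-beta on microglia, fell too, with 178 ± 37.7 against 324 ± 90.8 CPM (SD, n = 4 each), and with log2 fold change -0.84, SE 0.13, edgeR adjusted p 0.0394. Skil, the gene of a repressor of SMAD signalling, rose (87.8, 108, 95.5 and 97.5 CPM with aSyn and 22.5, 60.0, 39.6 and 30.1 CPM without it, experiments 1 to 4; log2 fold change 1.44, SE 0.20, edgeR adjusted p 0.0334). Of 22 tested TGF-beta and BMP genes 2 were called in each direction, against 0.78% of all genes higher and 0.424% lower, with a median of 0.11. In the fit over all 14 groups 5 of 24 were called higher and 2 lower, against 8.95% and 10.2% of all genes. DESeq2 called 3 and 2, against 4.86% and 5.76%. Tgfbi, a matrix gene named for its induction by TGF-beta and picked after its values were seen, rose by 1.68 (SE 0.15, adjusted p 0.0135). Bmp8a did not pass the filter of the 8-unit fit, with 16, 54, 83 and 2 counts with aSyn and 0, 1, 0 and 1 without. The fit over all 14 groups called it higher (log2 fold change 5.88, SE 1.21, edgeR adjusted p 5.90e-04).

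Of the falls, that of Nanos1, which encodes an RNA-binding repressor of translation, started from the highest level among the 5 largest. Nanos1 was measured at 24.6, 12.1, 11.8 and 4.20 CPM in aSyn-treated cells of experiments 1 to 4 and 176, 39.0, 85.9 and 107 CPM in untreated cells (log2 fold change -2.96, SE 0.45, edgeR adjusted p 0.0411). The groups did not overlap, and experiment 4 had the lowest level with aSyn. Zfp618, a zinc finger gene, was measured at 1.75, 0.0709, 2.86 and 2.77 CPM in aSyn-treated cells of experiments 1 to 4 and 9.76, 0.910, 22.8 and 24.2 CPM in untreated cells; it was low throughout experiment 2, so that the groups overlapped although each experiment showed the fall (log2 fold change -2.92, SE 0.24, edgeR adjusted p 0.0135). Tln2, whose product talin 2 links integrins to actin, had 3.83 ± 2.11 against 21.6 ± 5.59 CPM (SD, n = 4 each), with log2 fold change -2.59, SE 0.34, edgeR adjusted p 0.0319. St3gal6, a sialyltransferase gene (-2.13), Serpine2, the gene of protease nexin 1 (-1.87), Hdac9, a histone deacetylase gene (-1.79), and Plekhh2 (-2.12) also fell.

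Spred1 and Etv5, a negative regulator and a target of the ERK pathway, fell with standard errors of 0.11 and 0.12 on the log2 scale. Spred1, which encodes an inhibitor of RAS signalling, was measured at 104, 86.3, 90.4 and 82.5 CPM in aSyn-treated cells of experiments 1 to 4 and 195, 172, 194 and 168 CPM in untreated cells, 0.497 times the untreated level in the fit (log2 fold change -1.01, SE 0.11, edgeR adjusted p 0.0199). Etv5, an ETS factor gene that ERK signalling induces, fell likewise (23.9, 21.8, 28.4 and 26.5 CPM with aSyn and 57.6, 41.3, 69.7 and 57.4 CPM without it, experiments 1 to 4; log2 fold change -1.15, SE 0.12, edgeR adjusted p 0.0199). Spry2, another feedback inhibitor gene, picked after its values were seen, fell (log2 fold change -1.20, SE 0.18, adjusted p 0.0404). Dab2, an endocytic adaptor gene with a high level in these cells, was picked in the same way, with 345 ± 87.7 against 759 ± 148 CPM (SD, n = 4 each), and with log2 fold change -1.16, SE 0.17, edgeR adjusted p 0.0368.

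Genes of the dividing cell had negative values, and whether they were called depended on the test. All 35 DNA replication genes and all 30 mitosis genes tested had negative values, at medians of -0.90 and -1.60. Of them 25 (71.4%) and 28 (93.3%) were lower in each of the 4 experiments, against 16.6% of all genes, and 23 and 27 had an unadjusted edgeR p under 0.05 (11% of all genes with aSyn lower), but edgeR called 0 of them on the 8 units. DESeq2 on the same units called 19 and 26 lower and 0 higher, against 5.76% and 4.86% of all genes. With all 14 groups in the fit edgeR called 25 and 28 lower and 0 higher, against 10.2% and 8.95% of all genes. The mitosis medians were -0.62, -0.81, -1.64 and -3.46 in experiments 1 to 4. Plk1, a mitotic kinase gene, had 13.4, 1.91, 2.07 and 1.70 CPM with aSyn and 26.9, 8.71, 18.0 and 22.2 CPM without it, experiments 1 to 4 (log2 fold change -2.43, SE 0.45, edgeR adjusted p 0.0636), and Mcm3, of the replicative helicase, 36.0, 27.2, 30.2 and 32.1 CPM with aSyn and 90.6, 36.9, 66.2 and 75.6 CPM without it, experiments 1 to 4 (log2 fold change -1.04, SE 0.17, edgeR adjusted p 0.0534). In both genes every aSyn-treated unit was lower than its untreated partner. Picked after their values were seen, the condensin gene Ncapd2 (-1.54), Parp1 (-1.001) and Tmpo (-1.05) fell, as did the tubulin genes Tubb5 (-0.90) and Tuba1b (-0.92).

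Some of the genes that fell are marker genes of other cells of a mixed glial culture. Olig1, a transcription factor gene of the oligodendrocyte lineage, was measured at 2.19, 1.42, 8.51 and 7.86 CPM in aSyn-treated cells of experiments 1 to 4 and 4.38, 6.46, 85.0 and 74.7 CPM in untreated cells (log2 fold change -2.58, SE 0.40, edgeR adjusted p 0.0446). Nes, the gene of the progenitor filament nestin, was measured at 44.2, 27.2, 21.2 and 19.9 CPM in aSyn-treated cells of experiments 1 to 4 and 73.1, 56.9, 64.4 and 66.7 CPM in untreated cells (log2 fold change -1.28, SE 0.20, edgeR adjusted p 0.0416). Both fell in each experiment, Olig1 from levels that in untreated cells of experiments 3 and 4 were far above those of experiments 1 and 2. Tubb2b, Nr2f1, Fbxo2 and Sparc, which neural cells also express, fell, with log2 fold changes of -2.09, -2.67, -3.06 and -1.63 (SE 0.29, 0.35, 0.45 and 0.26). Untreated Nr2f1 was 0.996, 2.04, 17.8 and 11.4 CPM in experiments 1 to 4 and untreated Fbxo2 1.10, 1.13, 9.61 and 22.1 CPM.

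Summed levels of the markers of such cells were lower with aSyn in 3 or 4 of the 4 experiments. The 8 astrocyte markers summed to 11.1 to 30.0 CPM with aSyn and 11.2 to 138 CPM without. They were lower in 3 of 4 experiments, and experiment 1 had 13.8 CPM with aSyn against 11.2 CPM without. The 8 oligodendrocyte lineage markers summed to 82.4 to 248.4 and 117 to 589 CPM (lower in 3 of 4, with 117.4 against 116.8 CPM in experiment 2). All 7 tested members had negative values, from -0.10 for Mbp to -2.58 for Olig1, the 1 called. The 6 neuron markers summed to 1.35 to 3.50 and 3.49 to 30.1 CPM (lower in 4 of 4). The 4 progenitor markers summed to 23.6 to 46.1 and 59.1 to 117 CPM (lower in 4 of 4, without overlap). Olig1 and Nes are themselves members of these lists, so the sums do not stand apart from their falls. Nes alone gave 73.1 of the 74.9 progenitor CPM in untreated cells of experiment 1 and 66.7 of 117 in experiment 4. The 5 fibroblast and pericyte markers summed to 0.512 to 10.8 and 0.217 to 17.3 CPM (lower in 3 of 4). Their part in the falls of Olig1, Nes, Nr2f1, Fbxo2, Tubb2b and Sparc was not tested. In bulk RNA, fewer cells of a type and less RNA per cell cannot be told apart.

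**Figure D4:**
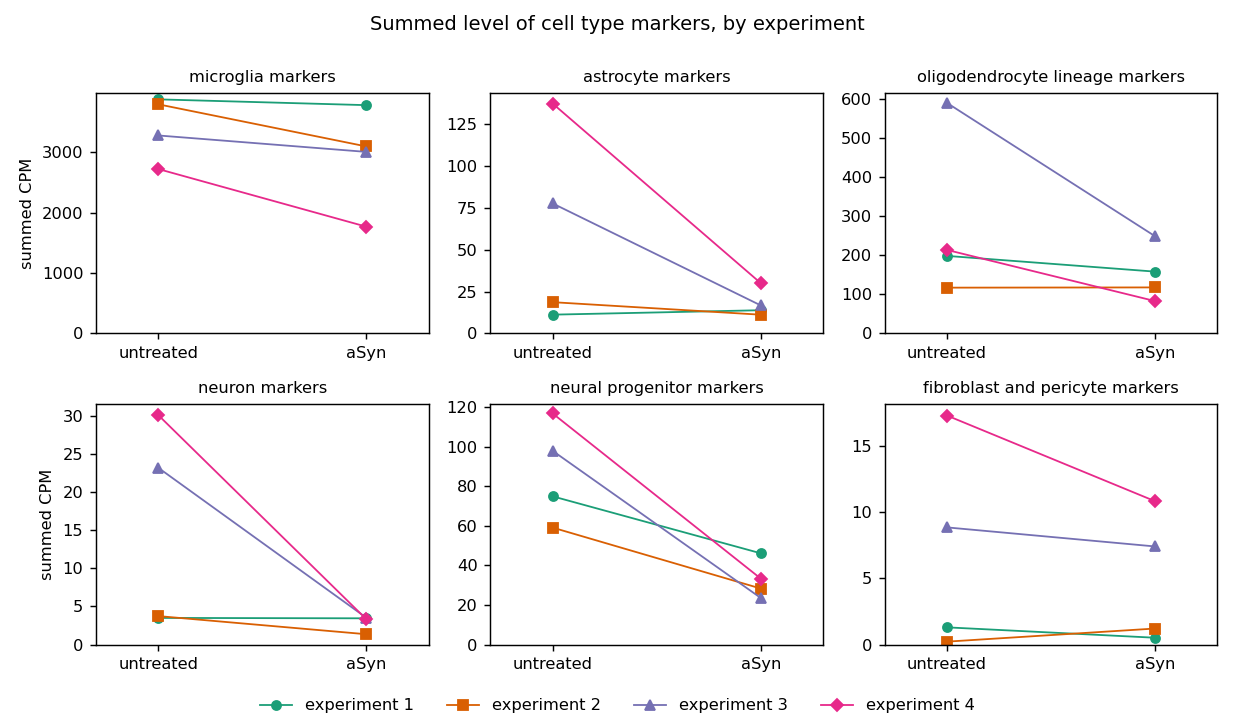
Summed CPM of the markers of 6 cell types in untreated and aSyn-treated units, with 1 line for each of the 4 experiments and axes that start at 0. Untreated units of experiments 3 and 4 carried the most astrocyte and neuron marker RNA, up to 138 and 30.1 CPM; microglia markers ran from 1767 to 3878 CPM.

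Markers of myeloid cells were summed in the same way. The 7 microglia markers summed to 1767 to 3782 CPM with aSyn and 2723 to 3878 CPM without, lower in 4 of 4 experiments, and the 5 border macrophage markers to 137 to 302 and 193 to 290 CPM (lower in 3 of 4). Those of monocytes and neutrophils were near 0, at 1.83 to 8.94 and 1.72 to 2.49 CPM (higher with aSyn in 4 of 4 experiments), with Ly6c2, S100a9 and Ly6g not in the table. The part of such cells in the rises of Ccr1, Lcn2 and Cxcl3 was not tested. Endothelial markers summed to 1.03 to 4.11 and 0.429 to 1.38 CPM (higher in 4 of 4), and Cldn5 was not in the table.

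Of 24 tested homeostatic microglia genes Tgfbr2 and Sparc were called, both lower, against 1.2% of all genes called, with a median of -0.32. Sparc is also named above among the genes that other neural cells express. In the fit over all 14 groups 3 of 25 were called higher and 8 lower, against 8.95% and 10.2% of all genes. DESeq2 called 1 of 24 higher and 6 lower, against 4.86% and 5.76%. Cx3cr1, the fractalkine receptor gene, had 352, 141, 140.04 and 23.4 CPM with aSyn and 479, 189, 329.99 and 347 CPM without it, experiments 1 to 4, and the lowest value lay in experiment 4 (log2 fold change -1.39, SE 0.59, edgeR adjusted p 0.233). Trem2, a lipid receptor gene of microglia, was likewise lowest in experiment 4 (484, 328, 402 and 37.7 CPM with aSyn and 764, 494, 713 and 664 CPM without it, experiments 1 to 4; log2 fold change -1.41, SE 0.62, edgeR adjusted p 0.246). Tmem119 was higher in each experiment and P2ry12 was not, and neither was called (log2 fold changes of 1.12 and -0.35, SE 0.35 and 0.30, adjusted p 0.14 and 0.54).

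None of 29 disease-associated microglia genes was called by edgeR (11 had an unadjusted p under 0.05, against 21.9% of all genes), and their median was -0.01. Apoe had -0.62 (SE 0.22, adjusted p 0.171) and Gpnmb 0.42 (SE 0.24, adjusted p 0.358), the latter higher with aSyn in experiments 1 to 3 and lower in experiment 4. Scavenger, Fc and complement receptors, 23 tested, had 0 calls and a median of 0.13 (7 with an unadjusted edgeR p under 0.05, against the same share of all genes). Parkinson disease genes, 20 tested, had 0 calls and a median of -0.12 (3 with an unadjusted edgeR p under 0.05, against 21.9%); Lrrk2 did not pass the filter, with 0 to 21 counts with aSyn and 6 to 76 without. DESeq2 called 5 disease-associated, 3 scavenger and 0 Parkinson disease genes higher (4.86% of all genes) and 4, 2 and 1 lower (5.76%).

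Metabolic lists had 0 calls by edgeR. The medians were 0.38 for 24 glycolysis and hypoxia genes, 0.06 for 40 respiratory chain subunits, -0.15 for 23 cholesterol genes and 0.14 for 14 LXR targets, with 11, 4, 3 and 5 members at an unadjusted p under 0.05, against 21.9% of all genes. In the fit over all 14 groups 9, 6, 1 and 3 members were called higher (8.95% of all genes) and 1, 1, 1 and 0 lower (10.2%). DESeq2 called 6, 1, 0 and 1 higher (4.86% of all genes) and 1, 0, 0 and 1 lower (5.76%).

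The values of the called genes were then read in libraries that the comparison had not used: donor cells, which had also received aSyn, and acceptor cells, which had not, sorted apart after 15 min of co-culture (4 libraries each, from the same 4 experiments). The same test there called 195 of 11369 genes (1.72%), 149 higher in donors (1.31%) and 46 lower (0.405%). Of the 139 genes that had risen or fallen with aSyn, 135 were tested there. Lcn2 and Fbxo2, the largest rise and fall named above, and B3gat1 and Rfx2 did not pass the count filter there. Of the 135 tested, 132 had the same sign and 53 were called, all 53 in the same direction (45 higher and 8 lower). The share of same signs over all genes was not computed. These 53 are 38.1% of the 139 and 27.2% of the 195. Both comparisons share experiments but no library, and the acceptors differ from untreated cells in having been labelled, co-cultured and sorted.

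Adgre5 was again called higher, with a log2 fold change of 4.11 (SE 0.19, adjusted p 5.23e-04) in donors over acceptors. Cxcl3 (4.51), Slc13a3 (3.03), Tgm2 (2.81), Slc7a11 (2.74), Klf2 (2.51), Ptger2 (2.13), Chac1 (2.03) and Trib3 (1.73) were also called higher there. Zfp618 (-3.03), Nr2f1 (-2.74), St3gal6 (-1.40) and Spred1 (-0.86) were called lower.

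Sqstm1 (0.91, SE 0.17, adjusted p 0.0527), Asns (0.49, SE 0.23, 0.29), Nanos1 (-2.14, SE 0.47, 0.0803) and Tgfbr2 (-0.24, SE 0.11, 0.291) had the same sign without being called. The 3 genes of opposite sign were Txnip (0.34), Dok2 (0.00) and Slc6a8 (-0.08), none of them called. Whether the size of any gene's change differed between both comparisons was not tested.

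**Figure D5:**
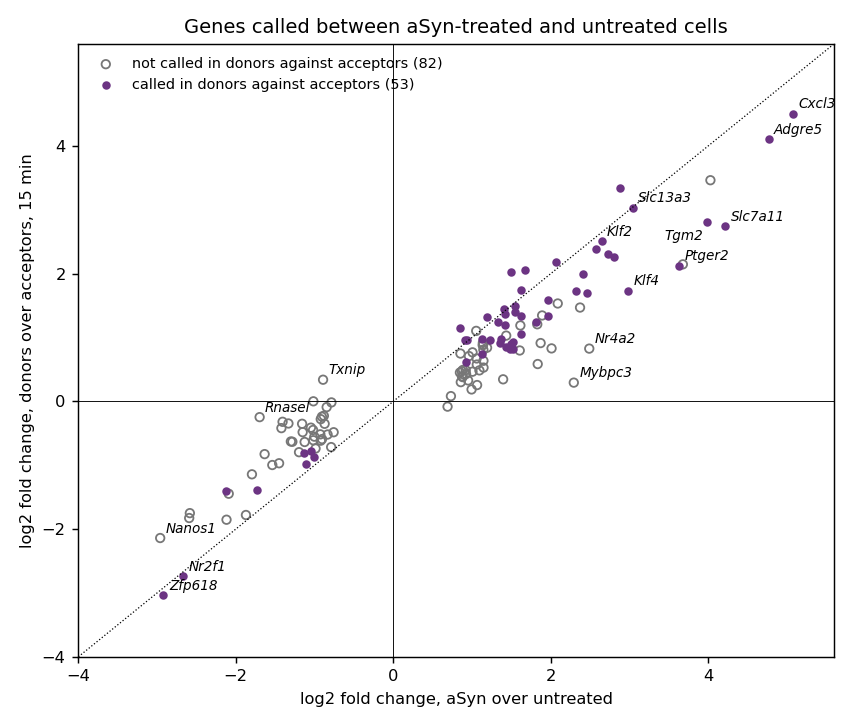
Log2 fold change of donors over acceptors after 15 min of co-culture (vertical axis) against that of aSyn-treated over untreated cells (horizontal axis) for the 135 called genes tested in both; the dotted line marks equal values. Filled points are the 53 genes called in both comparisons and open circles the other 82; Adgre5 and Cxcl3 lie highest and Zfp618 lowest.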

How the data were processed

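Raw counts per gene for 16632 genes and 54 libraries, deposited by the authors in 1 table, were the basis of every test. Libraries were made with a 3' mRNA kit (QuantSeq, forward) and read as 50-base single reads, per the labels' protocols. STAR, Partek, DESeq2 and the mm10 genome are named in the submitters' processing notes, without roles; the gene annotation, the counting tool and its use of strand are not given in the sources used here. A second deposited table holds normalized signal; in it 100% of values equal counts divided by 1 size factor per library (within 0.1), and it was not tested.

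Untreated libraries that share a number differed less (chi-square per degree of freedom 10.3 and 12.1) than others (24.2 to 288) and were summed. Genes passed edgeR's filterByExpr (minimum count 10). edgeR 4.0.16 (R 4.3.3) tested TMM-scaled counts with group and experiment number as terms, and a gene was called at a Benjamini-Hochberg adjusted p under 0.05. The script was checked on simulated counts that had the same dispersion for every gene, lower than the common dispersion of these data. That check does not measure how many calls are right at the spread of these data. CPM values are TMM-scaled, with 3 counts worth 0.112 to 0.299 CPM in the 8 units. Deviations of same-numbered libraries from their group means correlated (r 0.352, 0.477, 0.411 and 0.308), and passage labels are shared within a number, so the numbers were taken as pairs. As the labels do not say that these are separate animals, p-values measure the spread between these samples.

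Named genes were the 10 largest rises and falls among called genes with at least 5 CPM in the higher group, the 5 smallest p-values each way, up to 4 called members of each of 27 lists, and a fixed set with 10 lists of cell markers. The members of the comparison and the lists were chosen with earlier results of these data known. Positions and exon overlaps come from GENCODE M21. Alternatives were DESeq2 1.42.0, other scalings, filters and fits, each experiment left out, and 1 untreated library in place of a sum.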

Additional observations from a re-analysis of the deposited data

Results flagged for a closer look

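In 44 named genes and 27 list medians, the 4 experiments' differences were screened for 1 value standing far from the others. The levels of the same genes in each group, 88 sets, were screened too. Chance flags about 1 in 20 such sets. Here 2 sets were flagged, 0 of them levels, a smaller share than 1 in 20. For Tgm2 the log2 difference was 5.05 in experiment 1 and 3.57 to 3.81 in the others, with an untreated level of 1.20 CPM in experiment 1. For scavenger, Fc and complement receptors the list median was -0.42 in experiment 2 and 0.17 to 0.28 in the others.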

How the results depend on the processing

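With aSyn, 31 genes were called higher and 6 lower without the replicate block (29 and 6 of them among the 139), 211 and 118 in a fit over all 14 groups without it, 1178 and 1346 in that fit with it, 561 and 665 by DESeq2 and 242 and 172 without the count filter. Leaving out 1 experiment gave 1 to 204 higher and 0 to 137 lower. For donors against acceptors the same settings gave 16 and 2, 90 and 27, 658 and 602, 473 and 319, and 348 and 146, and leaving out 1 experiment 10 to 338 and 0 to 119. Of the 44 named called genes, 15 stayed called without the block and 28 in the 14-group fit without it. Leaving out experiment 1, 2 or 3 kept 3, 6 and 1 of the 44 called, and leaving out experiment 4 kept 42 of 43. With the first or second untreated library of each pair, 39 of 43 and 40 of 44 stayed called. All 44 did with RLE factors, DESeq2, no filter or Rn45s left out. None changed sign in any setting. The cause of these shifts was not tested. The fits without 1 experiment also held fewer samples, and the one without experiment 4 called more genes, 204 higher and 137 lower.

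The median of the cell fusion list was 0.22 without the block, and that of the TGF-beta list 0.044 without it, 0.028 in the 14-group fit without it and 0.059 to 0.13 without 1 experiment (0.059 without experiment 2). Uncalled genes that changed sign were Tnf (-0.072 in the 14-group fit with the block, -0.0057 with RLE factors, -0.010 by DESeq2, -0.00746 with Rn45s left out, -0.066 with the first untreated library of each pair), Cxcl10 (-0.13 without the block, -0.14 in the 14-group fit without it) and Aif1 (-0.043 and -0.052 in the same fits). Without 1 experiment Tnf ranged from -0.43 to 0.46, Tlr4 from -0.098 to 0.086, Csf1r from -0.016 to 0.17, Mbp from -0.18 to 0.039, Cspg4 from -0.97 to 0.51 and Ccr2 from -0.11 to 0.56.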
